A study of Mus musculus with 4 samples.

Results

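Collagen genes other than those of basement membrane were followed through the epithelium and mesenchyme of the embryonic submandibular gland (SMG) and parotid gland (PG) of the mouse. The set holds 37 of the 27998 genes measured. These are all genes whose symbol has the form Col, number, a, number (44 symbols), without the 7 genes of types IV and XVIII. The rule used gene names only, but the set was chosen with earlier results of these data known. Glands of ICR mouse embryos at embryonic day 12 were pooled, about 10 glands of each kind, and Dispase II was used to part epithelium from mesenchyme. Cells were then freed with a cold-active protease followed by Accutase and Accumax, and captured in droplets (10x Chromium). The 4 groups were thus SMG epithelium, PG epithelium, SMG mesenchyme and PG mesenchyme, all untreated, of the same strain and age, with 1 library each.

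Collagens are trimers of alpha chains, and each chain has its own gene. Types I, III and V build the fibrils of loose connective tissue, while types II, IX and XI build those of cartilage, with type IX on the surface of type II fibrils. Type II and type IX collagen have also been described along epithelia of early embryos, outside cartilage. In the salivary glands collagen is best known for holding clefts open while the epithelium branches within its mesenchyme.

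The libraries held 1996 to 4971 barcodes, 14004908 to 39621166 UMIs (unique molecular identifiers, tags that let each captured RNA be counted 1 time) and medians of 5493 to 9373 UMIs per barcode. PG epithelium was the shallowest by total. After filtering, the main classes held 3610 SMG and 1757 PG epithelial-like cells and 4280 SMG and 3912 PG mesenchymal-like cells, named from marker genes that included no collagen. These classes made up 88.4 to 95.8% of the kept cells of their libraries. Levels are a gene's UMIs per 1000000 UMIs of the class (CPM). Each UMI stands for 1 transcript read at its 3′ end, so gene length does not enter the levels. Because each group is 1 library, groups could not be tested against each other and no p-value is given. The 95% intervals cover counting error only, not differences between embryos or dissections. Of the barcodes, 120 occurred in more than 1 library (10 to 34 for a pair of libraries).

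Of the 37 genes, 24 reached 10 CPM in at least 1 of the 4 main classes, and 13 did not. At that level were 5 genes in SMG epithelium, 9 in PG epithelium, 21 in SMG mesenchyme and 15 in PG mesenchyme. The 37 genes summed to 405 CPM in SMG epithelium, 284 CPM in PG epithelium, 2232 CPM in SMG mesenchyme and 2504 CPM in PG mesenchyme. Mesenchyme thus held several-fold more collagen RNA than epithelium, and its makeup was another. Col1a1, Col1a2 and Col3a1 together gave 68.3% of this sum in SMG mesenchyme and 72.1% in PG mesenchyme, but 0.433% in SMG epithelium and 3.12% in PG epithelium. The genes of types II, IX and XI gave 74.8% in SMG epithelium, 30.6% in PG epithelium, 5.47% in SMG mesenchyme and 2.22% in PG mesenchyme.

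**Figure D1:**
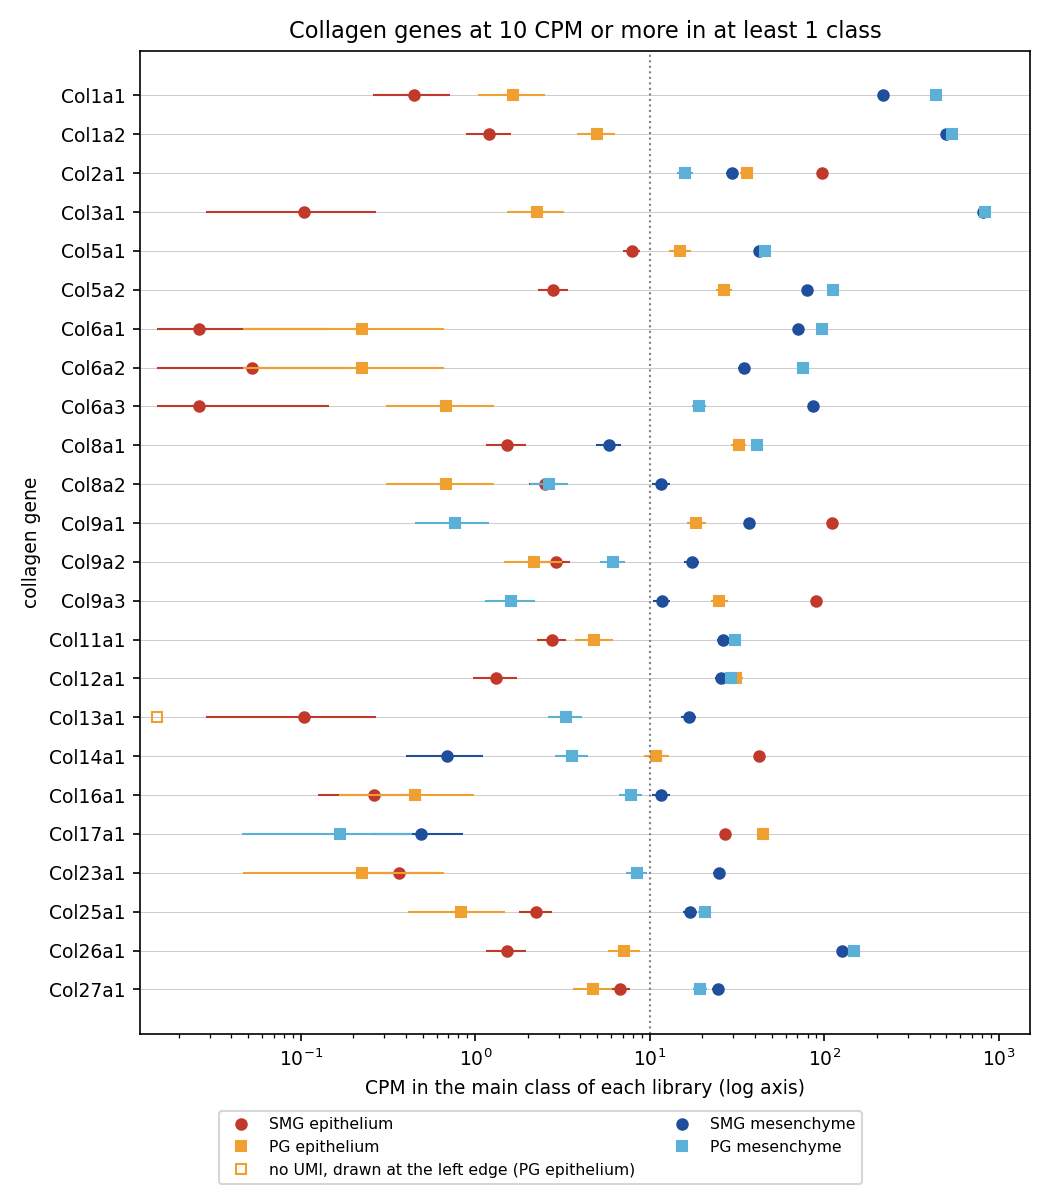
Levels of the 24 collagen genes that reached 10 CPM (dotted line) in at least 1 main class, on a log axis in CPM, with 1 point per library and 95% counting intervals as horizontal lines. The fibrillar genes Col1a1, Col1a2 and Col3a1 lie at 215 CPM or more in both mesenchymes and at 4.96 CPM or less in both epithelia, while Col2a1, Col9a1, Col9a3, Col14a1 and Col17a1 are highest in epithelium.

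Between tissues, a gene was called higher in one class where it had at least 10 CPM there and at least 2 times the level of the other class. In the SMG, 23 of the 37 genes reached the minimum: 5 were higher in epithelium, a direction called for 9.25% of the 8635 genes compared, and 18 were higher in mesenchyme, called for 19.4%. In the PG, 19 reached the minimum: 5 were higher in epithelium (8.5% of 8344 genes) and 12 in mesenchyme (11.5%). The 5 epithelial genes were Col2a1, Col9a1, Col9a3, Col14a1 and Col17a1 in both glands. The median log2 ratio of epithelium over mesenchyme was -4.30 over the collagen genes compared in the SMG, beside -0.19 over all genes, and -2.07 beside -0.05 in the PG.

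Between glands, the same size rule was applied within each tissue. In epithelium, 9 of the 37 genes reached the minimum. Col2a1, Col9a1, Col9a3 and Col14a1 were higher in the SMG, a direction called for 2.82% of 7708 genes. Col5a2, Col8a1 and Col12a1 were higher in the PG, a direction called for 3.84%. Col5a1 and Col17a1 were not called. In mesenchyme, 22 reached the minimum, 7 were higher in the SMG (6.16% of 8364 genes), 3 were higher in the PG (3.92%) and 12 were not called. Of the 7, Col8a2, Col9a2 and Col9a3 were not called under a stricter filter of barcodes (1000 or more genes, a mitochondrial share of 5% or less). The median log2 ratio of SMG over PG was -0.72 over the collagen genes compared in epithelium, beside -0.02 over all genes, and -0.07 beside 0.08 in mesenchyme.

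**Figure D2:**
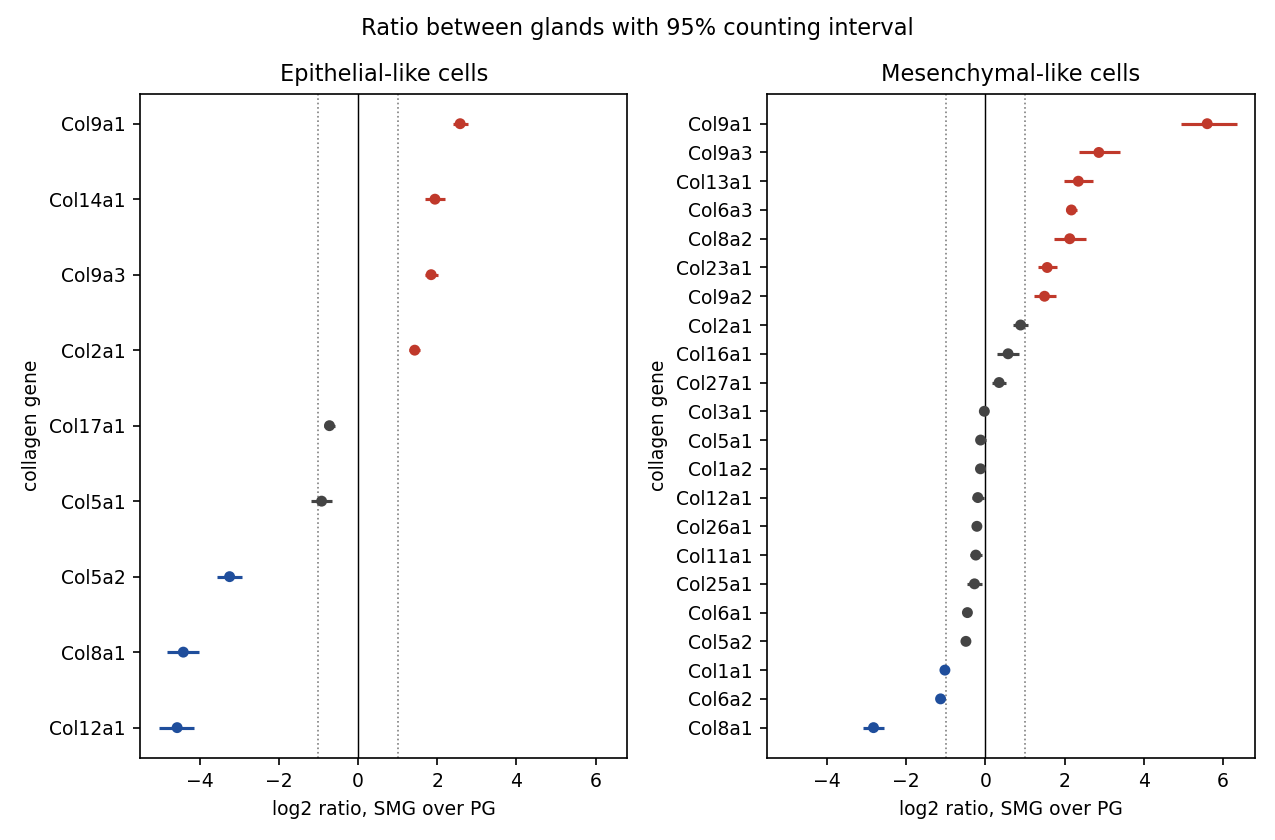
Log2 ratio of SMG over PG for each collagen gene at 10 CPM or more in the higher class, in epithelial-like cells (left) and mesenchymal-like cells (right). Lines are 95% counting intervals, dotted lines mark 2-fold, red genes were called higher in the SMG, blue genes higher in the PG and grey genes were not called. Col9a1 has the highest ratio in both tissues, 2.58 in epithelium and 5.6 in mesenchyme, and Col8a1 is higher in the PG in both.

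Col9a1, the gene of the alpha1 chain of type IX collagen, had the highest ratio of SMG over PG among the collagen genes compared in both tissues. It lies on chromosome 1 (GRCm38, chr1:24177610-24252684, plus strand) and has 2 start sites in RefSeq. Transcripts from the downstream start lack the large amino-terminal globular domain. Both forms share the 3′ part of the gene, so these counts add them together and cannot tell them apart. The bases before each start are shown because they are the sequences from which the SMG-high transcripts could have begun (RefSeq, GRCm38.p6, plus strand, chr1:24177360-24177609 for the upstream start and chr1:24194953-24195186 for the downstream start, ended before the first annotated transcript). Capitals mark CAAAG on either strand, core letters shared by motifs of SOX and TCF factors, searched for after the longer forms. The window of Col9a2 (chr4:121039316-121039384, plus strand) is set beside them because that gene differed from Col9a1 in the order of tissues.
Col9a1 upstream start: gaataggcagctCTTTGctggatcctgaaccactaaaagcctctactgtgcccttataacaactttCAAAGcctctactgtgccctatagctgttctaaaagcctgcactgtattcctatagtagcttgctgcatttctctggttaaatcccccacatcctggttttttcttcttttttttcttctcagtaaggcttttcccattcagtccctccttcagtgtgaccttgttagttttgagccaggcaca
Col9a1 downstream start: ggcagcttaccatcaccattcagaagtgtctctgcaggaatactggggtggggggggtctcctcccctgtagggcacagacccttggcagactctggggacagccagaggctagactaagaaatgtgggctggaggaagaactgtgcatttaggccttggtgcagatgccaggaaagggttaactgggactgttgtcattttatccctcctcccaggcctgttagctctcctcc
Col9a2 start: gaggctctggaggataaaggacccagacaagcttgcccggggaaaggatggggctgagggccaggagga
CAAAG occurred 2 times in the 250 bases before the upstream start, 0 times before the downstream start and 1 time in the 250-base window of Col9a2, outside the bases shown. Of 32851 promoter windows of that length, 48.6% hold it. The longer forms ACAAAG, which contains CAAAG, and ACAATG occurred in none of these windows, and 25.2% of all windows hold at least 1 of them. These are matches of letters only. RefSeq windows were matched for 29 of the 37 genes.

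Of the type IX chains, alpha1 and alpha3 had more RNA in the epithelial than in the mesenchymal main class of both glands. For both genes 1 cluster of SMG mesenchyme, described below, was above every epithelial-like cluster. Col9a1 had 110 CPM (107 to 114) in SMG epithelium, 18.5 CPM (16.2 to 20.9) in PG epithelium, 36.8 CPM (34.5 to 39.3) in SMG mesenchyme and 0.759 CPM (0.45 to 1.2, 18 UMIs) in PG mesenchyme. The SMG was thus above the PG in both tissues, 5.97-fold in epithelium (5.25 to 6.82) and 48.5-fold in mesenchyme (30.5 to 82.2). Epithelium was above mesenchyme in both glands, 3.0-fold in the SMG (2.79 to 3.22) and 24.3-fold in the PG (15.1 to 41.8).

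Col9a3, the gene of the alpha3 chain (chr2:180597790-180622189), had 90.0 CPM in SMG epithelium, 25 CPM in PG epithelium, 11.7 CPM in SMG mesenchyme and 1.6 CPM in PG mesenchyme. As for Col9a1, the SMG was above the PG in each tissue. Its ratio of SMG over PG was 3.60 in epithelium (3.21 to 4.04) and 7.28 in mesenchyme (5.18 to 10.5). The 3′ end of Col9a3 lies within Tcfl5 on the opposite strand, and whether strand was used in counting is not given in the sources used here. Tcfl5 itself had 0.150 to 0.284 CPM in the 4 classes.

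Col9a2, the gene of the alpha2 chain (chr4:121039385-121055322), did not follow the other chains of its own trimer in the order of tissues. It had 2.90 CPM (2.39 to 3.50) in SMG epithelium and 2.18 CPM (1.46 to 3.13) in PG epithelium, under the 10 CPM minimum in both. In mesenchyme it had 17.3 CPM in the SMG and 6.16 CPM in the PG (2.82-fold, 2.33 to 3.42). Of all type IX UMIs, Col9a2 gave 1.43% in SMG epithelium (111 of 7774 UMIs, Clopper-Pearson 1.18 to 1.72%) and 4.77% in PG epithelium (29 of 608, 3.22 to 6.78%). The share was 26.3% in SMG mesenchyme (24.2 to 28.6%) and 72.3% in PG mesenchyme (65.6 to 78.3%). It ran from 0.872 to 2.86% in the 11 SMG epithelial-like clusters and from 12.4 to 63.5% in the 9 SMG mesenchymal-like clusters with 50 or more type IX UMIs. In the PG only 3 epithelial-like clusters, those highest in Col9a1, and no mesenchymal-like cluster reached 50 such UMIs, so no range is compared there. PG epithelial-like clusters with fewer such UMIs reached higher shares, 1 of them 29.2% (7 of 24 UMIs, 12.6 to 51.1%). How well the 3′ end of each gene is captured differs between genes, so the shares describe UMIs, not chains of protein.

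Col2a1, which encodes the single chain of type II collagen (chr15:97975602-98004695), had 96.7 CPM (93.6 to 99.8) in SMG epithelium, 35.8 CPM (32.7 to 39.2) in PG epithelium, 29.4 CPM in SMG mesenchyme and 15.9 CPM in PG mesenchyme. It was 2.70-fold higher in SMG than in PG epithelium (2.45 to 2.97). Epithelium was above mesenchyme 3.29-fold in the SMG (3.04 to 3.57) and 2.26-fold in the PG (1.97 to 2.59). Col11a1, whose chain joins type II in cartilage fibrils, had the opposite order of tissues: 2.75 and 4.81 CPM in SMG and PG epithelium against 26.1 and 30.8 CPM in SMG and PG mesenchyme. Col11a2 had at most 0.770 CPM, in SMG mesenchyme. Col10a1, a marker of hypertrophic cartilage, had no UMI in any of the 4 main classes. A limit set at 3 UMIs is 0.0784 CPM in SMG epithelium and 0.225 CPM in PG epithelium. The 3′ end of Col10a1 lies within Nt5dc1 on the opposite strand, and Nt5dc1 had 4.51 to 7.59 CPM in these classes. Whether this overlap affects the count of Col10a1 was not tested.

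**Figure D3:**
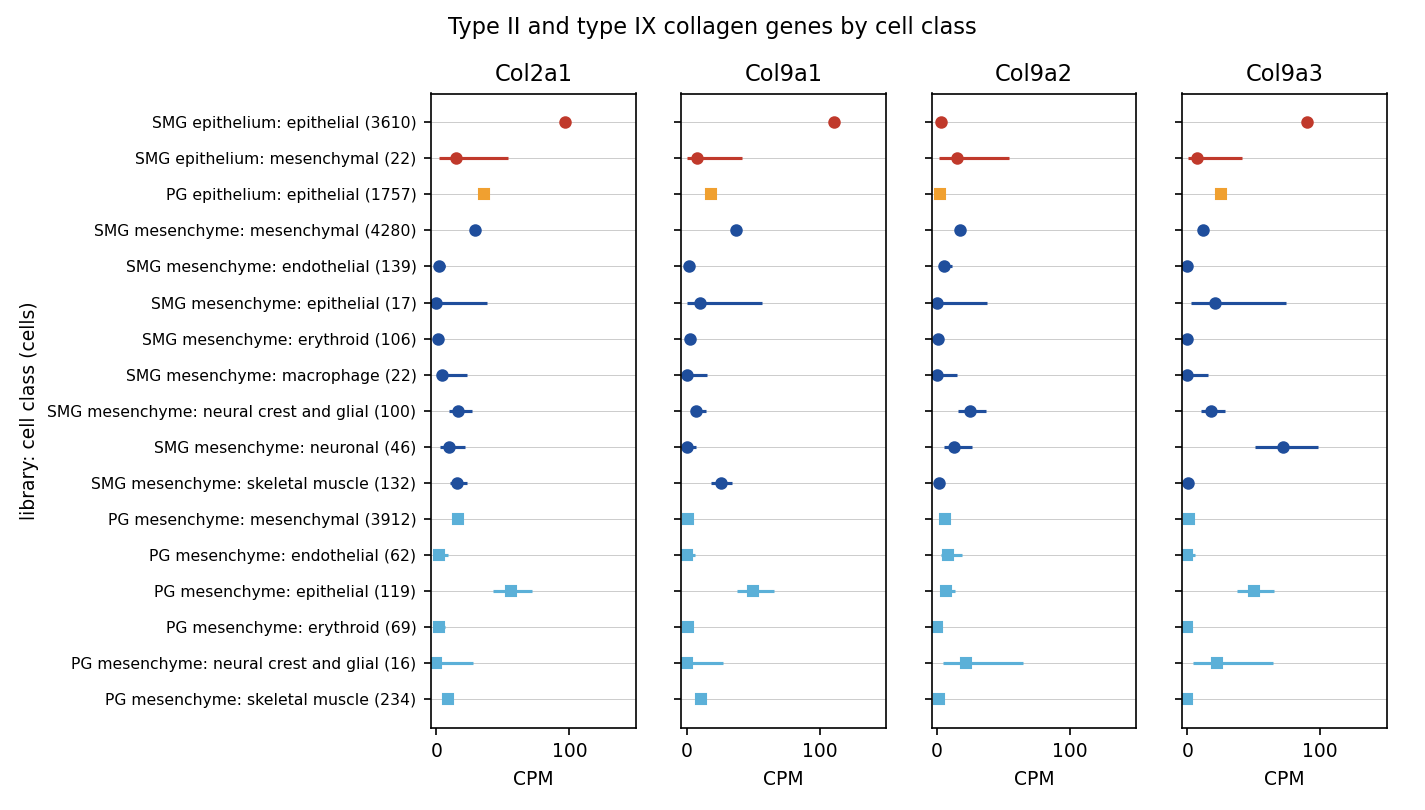
CPM of Col2a1, Col9a1, Col9a2 and Col9a3 in every named cell class of at least 15 cells, by library, with 95% counting intervals; the number of cells is in brackets. By class, epithelial-like cells of the SMG epithelium library are highest for Col2a1, Col9a1 and Col9a3. A cluster of 107 cells pooled in the SMG mesenchymal-like class is higher still, at 439, 370 and 275 CPM of these genes. The 119 epithelial-like cells of the PG mesenchyme library also hold these genes, at 50.1 to 55.8 CPM.

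The 119 epithelial-like cells of the PG mesenchyme library gave a reading of epithelial cells from another library. Of these, 74 were in a cluster led by Krt15 and Krt14 (median of 6178.5 UMIs). The other 45 were in a cluster led by Epcam and Spon2 (median of 12407 UMIs). Together the 119 cells had 55.8 CPM of Col2a1 (42.4 to 71.9) and 50.1 CPM of Col9a1 (37.5 to 65.5). Col9a3 had 50.1 CPM in them (37.5 to 65.5) and Col9a2 6.62 CPM (2.66 to 13.6). The mesenchymal-like cells of the same library had 0.759 CPM of Col9a1 and 1.6 CPM of Col9a3. Col9a1 and Col9a3 were thus higher in these 119 cells than in the epithelial-like cells of the PG epithelium library (18.5 and 25 CPM). How far a different mix of epithelial cells enters this difference was not tested. Erythroid-like cells, which should lack collagen, had 2.20 CPM of Col9a1 in the SMG mesenchyme library and 0.849 CPM in the PG mesenchyme library, and no UMI of Col9a3 in either. The Col9a1 of PG mesenchymal-like cells was thus no higher than the level in erythroid-like cells around them. That of SMG mesenchymal-like cells (36.8 CPM) was above it. Epithelial RNA in SMG mesenchyme was also measured: 12 of 14 epithelial markers were detected there, summing to 26.4 CPM (8.21 to 80.9 over clusters) against 3779 CPM in SMG epithelium, with Krt5 and Esrp1 at 0. The median marker had 0.260% of its epithelial level, and Col9a1 had 33.4%.

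By cell, 44.7% of SMG epithelial-like cells had a Col9a1 UMI (43.1 to 46.3%), 51.1% a Col2a1 UMI and 48.0% a Col9a3 UMI, at a median of 9829 UMIs per cell. In PG epithelial-like cells the shares were 8.82% (7.54 to 10.2%), 20.1% and 13.9%, at a median of 7139 UMIs. After each cell was thinned to 2000 UMIs, which left out 15 PG cells and no SMG cells, Col9a1 was seen in 15.4% of SMG cells (14.2 to 16.6%) and 2.99% of PG cells (2.24 to 3.90%). The unthinned share in mesenchymal-like cells was 12% in the SMG and 0.460% in the PG. In erythroid-like cells it was 3.77% (4 of 106 cells, at a median of 17195 UMIs) in the SMG mesenchyme library and 1.45% (1 of 69 cells, at a median of 16904 UMIs) in the PG mesenchyme library.

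Within each epithelium the type II and type IX genes were concentrated in the clusters high in Sox10, the gene of a factor that marks the distal bud cells of these glands. SMG clusters with 28.3 to 69.7 CPM of Sox10 (6 clusters) had 136 to 189 CPM of Col9a1. The other 5 SMG clusters had 1.61 to 62.9 CPM. In the PG, clusters with 104 and 75.4 CPM of Sox10 had 78.4 and 65.5 CPM of Col9a1, another with 15.9 CPM of Sox10 had 21.1 CPM, and the other 8 clusters had 0 to 5.39 CPM. Levels of Col2a1 ran from 24.9 to 146 CPM over SMG clusters and from 1.88 to 93.7 CPM over PG clusters. Ranges over clusters overlapped between glands for all 9 collagen genes compared in epithelium, and the share over all genes was not measured. The collagen genes were not among the genes used for clustering.

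**Figure D4:**
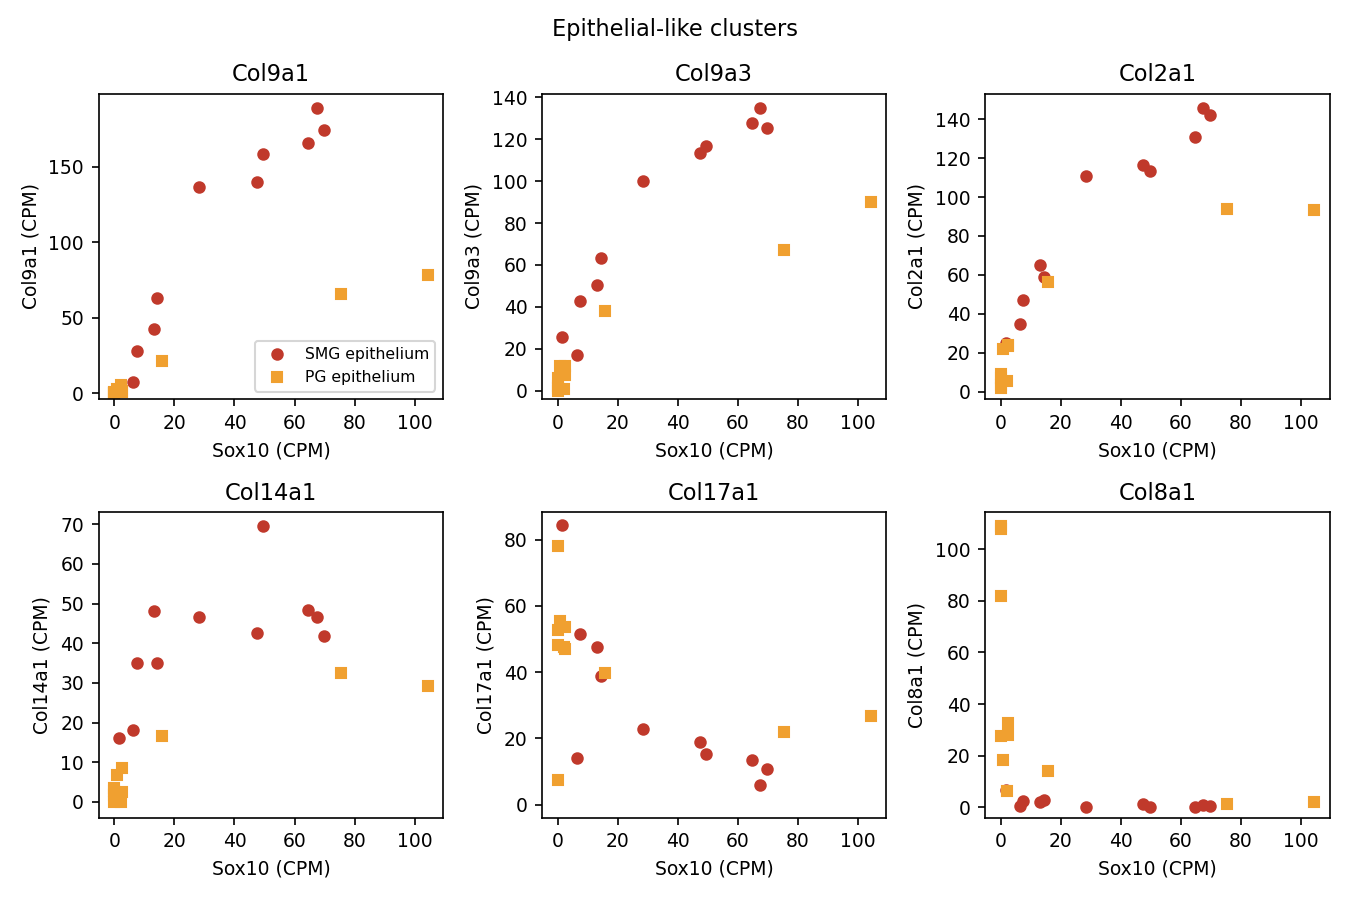
Level of 6 collagen genes (vertical axes, CPM) against Sox10 (horizontal axes, CPM) in the 11 epithelial-like clusters of each gland, 1 point per cluster. Col9a1, Col9a3 and Col2a1 are highest in the clusters high in Sox10 in both glands, Col17a1 and Col8a1 are highest in clusters with little Sox10, and the 2 PG clusters highest in Sox10 (65.5 and 78.4 CPM of Col9a1) have less Col9a1 than the 6 SMG clusters with 28.3 CPM of Sox10 or more.

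A Sox10 UMI was found in 25% of SMG epithelial-like cells (904 of 3610, 23.6 to 26.5%) and 11.0% of PG epithelial-like cells (193 of 1757, 9.56 to 12.5%). Cells with a Sox10 UMI were also deeper, with medians of 13445.5 against 8492.5 UMIs in the SMG and 8754 against 6916 UMIs in the PG. Col9a1 had 171 CPM in SMG cells with a Sox10 UMI and 79.2 CPM in those without (2.16-fold, 2.03 to 2.29). In the PG the values were 79.5 and 8.72 CPM (9.12-fold, 7.02 to 11.9). Col9a2 lay on the same side at lower levels, with 4.38 against 2.14 CPM in the SMG. In the PG it had 4.90 CPM (2.24 to 9.30) against 1.74 CPM (1.06 to 2.69), with overlapping intervals. Among cells with a Sox10 UMI, Col9a1, Col14a1 and Col27a1 were at least 2-fold higher in the SMG, Col9a3 (124 against 77.8 CPM) and Col2a1 (129 against 92.0 CPM) did not, and the genes higher in the PG fell under the 10 CPM minimum. Their levels in these cells were still higher in the PG for Col12a1 (9.25 against 0.154 CPM, from 17 and 2 UMIs, 60.1-fold, 14.3 to 537) and Col5a2 (7.62 against 1.23 CPM, 6.19-fold, 2.80 to 13.5). For Col8a1 (2.18 against 0.692 CPM, from 4 and 9 UMIs) the interval of the ratio, 0.708 to 11.3, included no difference. How far the makeup of bud and duct cells enters the difference between glands beyond this split was not tested.

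The genes whose log2 levels followed Col9a1 most closely over the 22 epithelial-like clusters of both glands were Eps8 (Pearson r = 0.97), Fgfr1 (r = 0.95), Sox10 (r = 0.95), Gnl3 (r = 0.95) and Dusp6 (r = 0.95). Of the 4227 genes compared, Col9a3 ranked 31 (r = 0.91), Col2a1 ranked 33 (r = 0.91) and Col14a1 ranked 84 (r = 0.86), while Col8a1 was among the most opposed (rank 4206, r = -0.90). Within the SMG alone (11 clusters) the first 5 were Hpgd, Lyar, Emb, Etv4 and Sec13. Within the PG alone (11 clusters) they were Lmcd1, Sox10, Eps8, Atp1b1 and Nnat. These correlations are descriptions over clusters that share a library and were themselves drawn from expression.

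In SMG mesenchyme 1 cluster was highest in the cartilage-type collagen genes. This cluster, 107 of 4280 cells, had 439 CPM of Col2a1, 370 CPM of Col9a1, 154 CPM of Col9a2, 275 CPM of Col9a3 and 111 CPM of Col11a1, and 330 CPM of Sox9, the gene of the main cartilage transcription factor. Its leading genes included Gsc, Prrx1, Matn4 and Dlx5, and it was named mesenchymal-like. The summed level of the 12 chondrogenic markers ran from 33.6 to 956 CPM over SMG mesenchymal-like clusters and from 12.1 to 84.5 CPM over PG clusters. The 107 cells held 79.5% of the Col9a3 UMIs and 50.3% of the Col2a1 UMIs of SMG mesenchymal-like cells, against 33.9% for Col9a1, 29.9% for Col9a2 and 14.3% for Col11a1.

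With this cluster left out, a choice made once the values were known, SMG mesenchyme had 25.2 CPM of Col9a1, 33.2-fold above the PG (20.8 to 56.4). Col9a2 was 2.04-fold above (1.67 to 2.51). Col9a3 was then 1.54-fold above the PG (1.01 to 2.39) and no longer called, and Col2a1 had 15.1 CPM in the SMG against 15.9 CPM in the PG (0.95-fold, 0.82 to 1.10). Col9a1 had 8.21 to 370 CPM over the 12 SMG mesenchymal-like clusters and 0 to 2.41 CPM over the 12 PG clusters. It was the 1 collagen gene of the 22 compared whose cluster ranges did not overlap between glands. The share of all genes with such separate ranges was not measured. The lowest SMG cluster had 10 Col9a1 UMIs in 236 cells (3.94 to 15.1 CPM). That interval overlapped the one of the highest PG cluster (0.498 to 7.06 CPM). Erythroid-like cells of the SMG mesenchyme library had 4 Col9a1 UMIs in 106 cells (2.20 CPM). The part of free RNA in the lowest SMG clusters was not tested.

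Col14a1 and Col17a1 were the other genes called higher in epithelium than in mesenchyme. Col14a1, the gene of a collagen that binds the surface of fibrils (chr15:55307750-55520803), had 41.9 CPM (39.9 to 44.0) in SMG epithelium, 10.9 CPM (9.19 to 12.8) in PG epithelium, 0.689 CPM in SMG mesenchyme and 3.59 CPM in PG mesenchyme. The SMG was 3.85-fold above the PG in epithelium (3.24 to 4.59), with the opposite order in mesenchyme. Over clusters Col14a1 ran from 16.1 to 69.6 CPM in the SMG and from 0 to 32.4 CPM in the PG. In the SMG, cells with a Sox10 UMI had 46.5 CPM and those without 39.5 CPM (1.18-fold, 1.06 to 1.30). In the PG the difference was larger, with 22.9 against 8.98 CPM (2.55-fold, 1.73 to 3.68).

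Col17a1, whose transmembrane product anchors basal epithelial cells in hemidesmosomes (chr19:47646344-47692094), had 27.1 CPM (25.5 to 28.8) in SMG epithelium and 44.6 CPM (41.1 to 48.4) in PG epithelium, against 0.486 and 0.169 CPM in the mesenchymes. The PG was 1.65-fold higher (1.49 to 1.82), under the 2-fold limit. It ran against Sox10: cells without a Sox10 UMI had 3.14 times the level of those with one in the SMG (2.63 to 3.77) and 2.22 times in the PG (1.61 to 3.14). Col7a1, the gene of the anchoring fibrils beneath such cells, had 1.73 CPM in SMG epithelium and 7.51 CPM in PG epithelium.

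PG epithelium held 3 collagen genes that were low in SMG epithelium. Col12a1, a fibril-associated collagen (chr9:79598991-79718831), had 31.0 CPM (28.0 to 34.1) in PG epithelium and 1.31 CPM (0.97 to 1.72) in SMG epithelium, a 23.7-fold difference (17.6 to 32.4). Col8a1, a short-chain network collagen (chr16:57624258-57754737), had 32.2 CPM (29.3 to 35.4) and 1.52 CPM (1.15 to 1.96), 21.3-fold (16.1 to 28.5). Col5a2, a chain of the fibril-nucleating type V, had 26.4 CPM (23.8 to 29.4) and 2.80 CPM (2.29 to 3.38), 9.45-fold (7.59 to 11.8). Col5a1, its partner chain, had 14.9 against 7.87 CPM (1.89-fold, 1.57 to 2.27) and was not called.

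The same genes are also made in mesenchyme, so mesenchymal RNA in the epithelium libraries was measured beside them. The 12 mesenchymal markers summed to 57.0 CPM in PG epithelium (7.51 to 173 over clusters) and 8.08 CPM in SMG epithelium (4.96 to 20.1), against 3009 CPM in PG mesenchyme and 1783 CPM in SMG mesenchyme. All 12 were detected in PG epithelium and 11 in SMG epithelium, where Prrx1 was at 0. Over the 10 markers at 10 CPM or more in PG mesenchyme, the median had 0.259% of its mesenchymal level in PG epithelium and the highest 10.8% (Postn). The other markers were low in both PG tissues, Meox1 with 3.16 CPM in epithelium and 5.23 CPM in mesenchyme and Foxf1 with 1 and 2 UMIs. Dcn gave 41.1 of the 57.0 CPM. Col3a1 had 0.272% of its mesenchymal level in PG epithelium and Col1a1 0.378%. Col12a1 had 106% of the PG mesenchymal level there, Col8a1 78.0% and Col5a2 23.8%. Over PG epithelial-like clusters Col8a1 was highest at 109 CPM in a cluster with 7.51 CPM of the markers, the lowest marker sum, and next at 108 and 81.9 CPM in the clusters with the highest sums, 173 and 141 CPM. Col12a1 ran from 6.47 to 59.2 CPM and was highest in the cluster with 173 CPM of the markers. In that cluster Col1a1 had 0.897 CPM and Col3a1 5.38 CPM. The part of mesenchymal RNA in these levels was not tested further. The 119 epithelial-like cells of the PG mesenchyme library had 25.5 CPM of Col12a1 and 17 CPM of Col8a1.

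Duct and bud genes were measured beside these. Of the 8 duct genes 5 were higher in PG epithelium (3.84% of all genes) and 0 in SMG epithelium (2.82%), among them Krt5 (356 against 29.5 CPM) and Krt14 (1036 against 161 CPM). Of 6 bud genes at 10 CPM or more, 2 were higher in PG epithelium, 1 in SMG epithelium and 3 were not called. Col8a1 was lower in PG cells with a Sox10 UMI (2.18 CPM) than in those without (37.0 CPM), and so was Col12a1 (9.25 against 34.4 CPM). The part of these epithelial cell states in the difference between glands was not tested.

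The fibrillar genes of connective tissue were the most abundant in mesenchyme. Col3a1 had 814 CPM (803 to 825) in the SMG and 829 CPM (817 to 840) in the PG, and its ratio was 0.98 (0.96 to 1.00). Col1a2 had 495 and 540 CPM, 1.09-fold higher in the PG (1.06 to 1.12). Col1a1 had 215 CPM (210 to 221) in the SMG and 437 CPM (429 to 446) in the PG, 2.03-fold higher in the PG (1.96 to 2.1). Without the SMG cluster high in Col2a1 this ratio was 1.997 (1.93 to 2.07), just under the limit. Of the type I UMIs, Col1a1 gave 30.3% in SMG mesenchyme (29.6 to 31.0%) and 44.8% in PG mesenchyme (44.1 to 45.4%). In epithelium these genes had 0.105 to 4.96 CPM.

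Type V and type XXVII were more even. Col5a1 had 41.9 CPM in SMG and 45.6 CPM in PG mesenchyme, and Col5a2 had 79.1 and 111 CPM (1.41-fold higher in the PG, 1.32 to 1.49). Col27a1, a fibrillar gene best known from cartilage, had 24.5 CPM in SMG and 19.3 CPM in PG mesenchyme, and 6.77 and 4.73 CPM in SMG and PG epithelium. None of these was called between the mesenchymes.

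The chains of type VI collagen, a beaded-filament collagen found around cells, split between glands. Col6a1 had 70.6 CPM in SMG and 96.7 CPM in PG mesenchyme (1.37-fold higher in the PG, 1.29 to 1.46). Col6a2 had 34.4 and 75.4 CPM (2.19-fold higher in the PG, 2.02 to 2.38). Col6a3 went the other way, with 86.3 CPM (82.7 to 90.0) in the SMG and 19.2 CPM (17.4 to 21.0) in the PG, 4.5-fold higher in the SMG (4.07 to 5.0). Col6a3 thus gave 45.1% of the UMIs of these chains in SMG mesenchyme (43.7 to 46.5%) and 10.0% in PG mesenchyme (9.16 to 10.9%). Over clusters Col6a3 ran from 40.8 to 117 CPM in the SMG and from 6.92 to 67.1 CPM in the PG, where the second-highest cluster had 31.9 CPM. In epithelium the 3 genes had 0.0261 to 0.676 CPM.

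The type VIII genes also took opposite sides. Col8a1 had 5.84 CPM (4.92 to 6.87) in SMG mesenchyme and 41.3 CPM (38.8 to 44.0) in PG mesenchyme, 7.08-fold higher in the PG (5.94 to 8.49). Col8a2 had 11.6 CPM (10.3 to 13.1) and 2.66 CPM (2.04 to 3.40), 4.38-fold higher in the SMG (3.32 to 5.84). In epithelium Col8a2 had 2.51 CPM in the SMG and 0.676 CPM in the PG. Col8a1 was uneven within each gland: it had 0 to 53.4 CPM over SMG clusters and 0 to 183 CPM over PG clusters. Col26a1, a secreted collagen-related gene, was high in both mesenchymes, at 127 CPM in the SMG and 147 CPM in the PG, with 1.52 and 7.14 CPM in the epithelia.

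**Figure D5:**
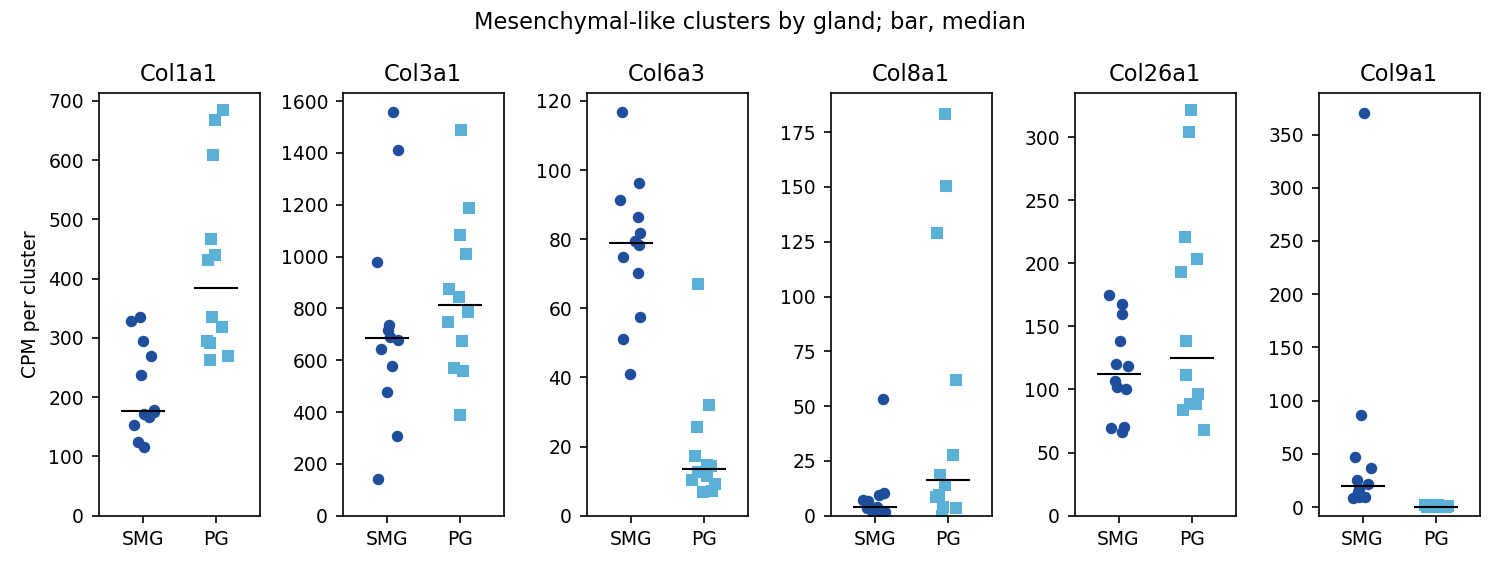
CPM of 6 collagen genes in the 12 mesenchymal-like clusters of each gland, 1 point per cluster, with the median as a bar; sideways position within a gland has no meaning. Col6a3 lies higher in the SMG and Col1a1 higher in the PG with overlapping ranges, Col8a1 is high in a few PG clusters, and Col9a1 is at 8.21 CPM or more in every SMG cluster and at 2.41 CPM or less in every PG cluster.

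Of 3 membrane-spanning collagens of mesenchyme, 2 were called higher in the SMG, a direction called for 6.16% of the 8364 genes compared. Col13a1, found at sites where cells attach to matrix, had 16.7 CPM (15.2 to 18.4) in SMG and 3.29 CPM (2.60 to 4.11) in PG mesenchyme, 5.09-fold higher in the SMG (3.98 to 6.56). Col23a1 had 24.8 and 8.40 CPM (2.95-fold, 2.51 to 3.48). Col25a1, of the same kind, had 17 and 20.5 CPM and was not called. Col12a1 had 25.7 and 29.3 CPM, and Col16a1, another fibril-associated collagen, 11.6 and 7.76 CPM. Neither was called between the mesenchymes. In epithelium Col13a1 had 4 UMIs in the SMG and none in the PG, Col16a1 and Col23a1 had at most 0.451 CPM, and Col25a1 had 2.22 CPM in the SMG and 0.826 CPM in the PG.

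The 13 genes under 10 CPM in all 4 main classes were Col5a3, Col6a4, Col6a5, Col6a6, Col7a1, Col10a1, Col11a2, Col15a1, Col19a1, Col20a1, Col22a1, Col24a1 and Col28a1. Their highest levels ran from 0 CPM (Col10a1) to 7.51 CPM (Col7a1). Col6a6 had 4.18 CPM (99 UMIs) in PG and 0.729 CPM (18 UMIs) in SMG mesenchyme, and no UMI in either epithelium. Col6a4 was highest in PG epithelium at 3.08 CPM and so was Col19a1 at 2.03 CPM, against 0.784 CPM and no UMI in SMG epithelium.

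Erythroid-like cells served as a measure of free RNA. Over the collagen genes at 10 CPM or more in mesenchyme, the level in erythroid-like cells had a median of 4.22% of the mesenchymal level in the SMG (0 to 9.72%, 21 genes) and 4.09% in the PG (0 to 10.7%, 15 genes). Erythroid-like cells were deeper (medians of 17195 and 16904 UMIs against 5280 and 5562.5), and per cell the medians were 12.6% (0 to 28.9%) in the SMG and 11.5% (0 to 30.2%) in the PG. For Col9a1 in the SMG this was 17.8% per cell. Of the 12 chondrogenic markers 7 were detected in each epithelium. Hapln1, Matn1, Lect1, Comp and Epyc were at 0 in SMG epithelium, and Acan, Matn1, 3110079O15Rik, Comp and Epyc in PG epithelium. The list summed to 132 and 100.1 CPM in SMG and PG epithelium and to 83.0 and 22.8 CPM in SMG and PG mesenchyme.

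The genes that make, process, bind and break down collagen were measured from gene lists. Of 23 biosynthesis genes at 10 CPM or more in the SMG, 14 were higher in mesenchyme (19.4% of all genes). In epithelium 1 was higher (9.25%), and 8 were not called. Their median log2 ratio of epithelium over mesenchyme was -1.33 (all genes -0.19). The 1 exception was P4ha3, a subunit of the prolyl hydroxylase that stabilises the triple helix, with 16.7 CPM in SMG epithelium, 2.80 CPM in SMG mesenchyme and 3.08 CPM in PG epithelium. It was 5.42-fold higher in SMG than in PG epithelium (3.95 to 7.63), the same side as Col9a1. In the PG, 12 of 21 were higher in mesenchyme (11.5% of all genes) and 0 in epithelium (8.5%). Serpinh1, the collagen chaperone, had 550 and 790 CPM in SMG and PG epithelium and 843 and 1637 CPM in SMG and PG mesenchyme.

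Genes for processing and crosslinking were mostly mesenchymal, with 6 of 7 higher there in the SMG (19.4% of all genes) and 4 of 5 in the PG (11.5%). Their median log2 ratio of epithelium over mesenchyme was -5.14 in the SMG (all genes -0.19) and -3.48 in the PG (all genes -0.05). The mesenchymes differed: Lox, which crosslinks fibrils, had 13.3 CPM in the SMG and 74.7 CPM in the PG (5.62-fold, 4.99 to 6.34), while Adamts2, which trims procollagen, had 35.9 and 7.59 CPM (4.73-fold higher in the SMG, 4.02 to 5.58). Loxl2 was the list's gene with high epithelial RNA, at 133 CPM in SMG and 55.7 CPM in PG epithelium (2.39-fold, 2.22 to 2.59). Of 9 collagen receptors 3 reached the minimum between tissues. Ddr1 was higher in epithelium (46.4 against 16.3 CPM in the SMG, 69.0 against 8.02 CPM in the PG), and Ddr2 had 47.0 and 27.3 CPM in SMG and PG mesenchyme and no UMI in epithelium, at least 599-fold and 121-fold lower there. Itgb1 was not called.

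Of 8 genes of collagen breakdown at 10 CPM or more, 8 were higher in mesenchyme in the SMG (19.4% of all genes) and 6 in the PG (11.5%), where Timp3 and Mrc2 were not called. Their median log2 ratio was -2.65 in the SMG and -1.60 in the PG. Ctsk, a collagen-cleaving protease of the lysosome, had 89.0 CPM in SMG and 18 CPM in PG mesenchyme (4.95-fold, 4.46 to 5.51). Timp3, an inhibitor of matrix proteases, had 70.7 and 26.7 CPM there, and in epithelium the order turned, with 3.63 CPM in the SMG and 38.7 CPM in the PG (10.6-fold, 8.81 to 12.9).

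The cartilage list held factors and matrix genes that accompany Col2a1 and Col9a1 in chondrocytes. Sox9 had 109 CPM in SMG and 67.3 CPM in PG epithelium, above the 16.9 and 7.76 CPM of the mesenchymes. Sox6 was 2.66-fold higher in PG than in SMG epithelium (18.6 against 6.98 CPM, 2.23 to 3.17), against the order of Col9a1. Mia, a small secreted protein made by chondrocytes, had 110 CPM in SMG and 11.1 CPM in PG epithelium (9.87-fold, 8.37 to 11.7) and 31.2 and 0.253 CPM in the mesenchymes, the order of Col9a1 in all 4 classes. Matn4 (0.340 and 0.225 CPM in SMG and PG epithelium) and Epyc (no UMI in either) had 10.3 and 10.5 CPM in SMG mesenchyme. Of the 4 genes of this list at 10 CPM or more in epithelium, 1 was higher in the SMG (2.82% of all genes) and 1 in the PG (3.84%). In mesenchyme 4 of 6 were higher in the SMG (6.16%) and 1, Runx2, in the PG (10.7 against 3.77 CPM, 3.92%).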

How the data were processed

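The authors deposited raw whole-number UMI counts for each gene and barcode. Cell Ranger 2.1.1 and mm10 are named in the submitters' processing notes. Of 15351 barcodes, 14884 passed filters of 500 or more genes and a mitochondrial share of 10% or less. Each library was clustered by itself (scanpy 1.11.5, leidenalg 0.10.2, 2000 variable genes without collagen members, 30 principal components, 15 neighbours, resolution 0.8). Clusters were named from 14 marker lists, with at least 3 markers each in 25% of cells; 2 of 67 clusters, with a median mitochondrial share under 1%, stayed unnamed (135 SMG and 90 PG epithelium barcodes). Scrublet called 9 doublets, too few to have worked, so none were removed.

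UMIs were summed per class and library and expressed as CPM, with exact 95% Poisson, conditional binomial (ratios) and Clopper-Pearson (shares) intervals. For a class at 0, ratios used 3 UMIs over the class. Depth per main class was 13310079 to 38241975 UMIs. The size rule was run on simulated counts with planted changes and counting error only. This checked the calculation, not differences between embryos or dissections. Named were all members at 10 CPM or more, up to 4 genes per pathway list and comparison by size of ratio, and the 5 genes most like Col9a1 (log2 of CPM + 1, genes at 50 CPM or more). Cnmd and Snorc were matched by ID (Lect1, 3110079O15Rik in the files). The members and gene lists were chosen with earlier results of these data known. Coordinates come from GENCODE and RefSeq on GRCm38. Alternatives covered filters, classes, TMM scaling (edgeR 4.0.16), thresholds, weighting, resolution, doublet scores, the Sox10 split and thinning. Annotation version and strand setting are not given in the sources used here.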

Additional observations from a re-analysis of the deposited data

How the results depend on the processing

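No paired analysis was possible because each group has 1 library and the labels give no replicate numbers. No log2 ratio of a called collagen gene changed sign under any alternative run. With a minimum of 50 CPM, 3 genes were called higher in SMG epithelium and 0 in PG epithelium. Between mesenchymes 1 was higher in the SMG and 2 in the PG. Within the SMG 3 were higher in epithelium and 7 in mesenchyme, and within the PG 0 and 7. With any gene above 3 UMIs, 6 were higher in SMG epithelium and 12 in PG epithelium. Between mesenchymes these were 12 and 6. Within the SMG 7 were higher in epithelium and 27 in mesenchyme, and within the PG 7 and 20. With a ratio of at least 3, 3 were higher in SMG epithelium and 3 in PG epithelium. Between mesenchymes these were 5 and 1. Within the SMG 4 were higher in epithelium and 18 in mesenchyme, and within the PG 4 and 12. The share of all genes called is not given for these or the following alternatives. Among cells with a Sox10 UMI, 0 were called higher in PG epithelium, where none of Col5a2, Col8a1 and Col12a1 reached 10 CPM. Under the stricter barcode filter 4 were higher in SMG mesenchyme, since Col8a2, Col9a2 and Col9a3 were lost; there, and at resolution 1.6, where Col9a3 was lost, a small SMG cluster rich in cartilage markers was named chondrogenic and left the mesenchymal class. With all kept barcodes of each library Col8a2 was lost and Col15a1 gained between mesenchymes. Without the SMG mesenchymal-like cluster highest in Col2a1, Col9a3 and Col1a1 were lost. The cause of these changes was not tested. TMM scaling moved the median log2 ratio of all genes from -0.02 to 0.10 between epithelia, from 0.08 to -0.06 between mesenchymes and from -0.19 to 0.12 between tissues of the SMG, and changed no call of a collagen gene. PG epithelium, with the fewest UMIs, limits what can be seen: 1 UMI there is 0.0751 CPM.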

Other observations

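Other cell classes of the mesenchyme libraries had collagen genes of their own. Col15a1, a collagen of vessel walls that had at most 1.38 CPM in the 4 main classes, had 225 CPM (200.2 to 253) in the 139 endothelial-like cells of the SMG and 191 CPM (158 to 229) in the 62 of the PG. Col20a1 had 32.9 CPM (22.5 to 46.5) in the 100 neural crest and glial-like cells of the SMG and 22.1 CPM (3 UMIs, 4.55 to 64.5) in the 16 of the PG, and at most 0.211 CPM in the main classes. The same SMG cells had 37.1 CPM of Col25a1 and 24.7 CPM of Col9a2 (15.8 to 36.8), against 7.20 CPM of Col9a1. Erythroid-like cells had 0.550 CPM of Col15a1 in the SMG mesenchyme library, and no Col20a1 UMI in either mesenchyme library.

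The 46 neuronal-like cells of the SMG mesenchyme library had 71.8 CPM of Col9a3 (51.1 to 98.2) with no Col9a1 UMI and 12.9 CPM of Col9a2, a mixture of type IX chains unlike those of epithelium and mesenchyme. No PG cluster was named neuronal-like. Skeletal muscle-like cells had 25.6 CPM of Col9a1 in the SMG (18.6 to 34.4) and 10.5 CPM in the PG (7.42 to 14.4), with 0.582 CPM and no UMI of Col9a3. They also had 98.9 and 92.1 CPM of Col26a1. PG muscle-like cells thus had more Col9a1 than the PG mesenchymal-like cells of the same library (0.759 CPM).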
